A study of Mus musculus with 4 samples.

Results

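The proteasome subunit genes of the mouse pancreas were taken by symbol: Psma, Psmb, Psmc, Psmd, Psme or Psmg followed by digits and at most a final letter, with pseudogenes and predicted-gene symbols left out. The rule itself uses symbols and no measured value. The symbols picked 48 genes of the 55401 identifiers in the count table. Poly(A)-selected RNA came from pancreatic tissue lying next to tumours of Panc02, a mouse pancreatic ductal adenocarcinoma line, in 4 libraries. The 2 WT libraries came from wild-type mice and the 2 CRFR1-KO libraries from mice with a conditional knockout of CRFR1, the corticotropin-releasing factor receptor encoded by Crhr1. All 4 libraries came from tumour-bearing animals, so no group was free of a tumour. The series title names mast cells, but the promoter that drives the recombinase, the strain, the sex and the age of the mice are not stated there.

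Total counts lay between 63495457 and 71203640 per library. A list of 28 acinar genes, those of the cells that make digestive enzymes, took 54.0% to 57.1% of all counts, so the tissue label matched its defining markers. Crhr1 was at a count of 0 in all 4 libraries, which left the genotype labels unchecked. A count of 3, the limit that a count of 0 allows, amounted to 0.0363 to 0.048 CPM, the count divided by the scaled library size. Where values of all 4 libraries are given, library 1 of a genotype precedes library 2 and WT precedes CRFR1-KO (the knockouts). Nothing in the labels states that the 2 libraries of a group came from separate animals, and p-values measure the spread between libraries, which may be technical. In bulk tissue, fewer cells of a type and less RNA per cell cannot be told apart.

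The proteasome is the chamber in which cells cut up proteins that carry ubiquitin chains. Its 20S core is a stack of rings: alpha subunits (Psma genes) form the gate, and beta subunits (Psmb genes) include the ones that cut, which are Psmb5, Psmb6 and Psmb7. The 19S cap unfolds substrates with a ring of ATPases (Psmc genes) and binds ubiquitin with non-ATPase subunits (Psmd genes). Under interferon gamma, and constantly in many immune cells, Psmb8, Psmb9 and Psmb10 are built in instead of Psmb5, Psmb6 and Psmb7, which gives the immunoproteasome and changes the peptides offered on MHC class I. Psme1 and Psme2 form an alternative cap known as the 11S activator or PA28. Acinar cells secrete large amounts of protein and clear misfolded chains from the endoplasmic reticulum through the proteasome.

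By role the 48 genes were 8 alpha subunits, 7 constitutive beta subunits, 3 immunoproteasome subunits, the thymus subunit Psmb11, 6 ATPases, 11 non-ATPase subunits, 3 assembly chaperones of the cap, 4 assembly chaperones of the core and 5 activators. They lay on 16 chromosomes. A filter on low counts kept 46. Psmb11, which is used in the thymus, was at a count of 0 in all 4 libraries, and Psma8, an alpha subunit of the testis, had counts of 5 and 0 in the WT pair, against 4 and 0 in the knockouts. Counts of the 46 genes kept ran from 9 to 2526 per library.

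The start regions of the exchanged subunits are shown because the levels of these genes are what the results below turn on. Each runs from 250 bases before to 50 bases after the RefSeq gene start on GRCm38.p6, written 5′ to 3′ on the gene's strand, with a motif match in capitals.
Psmb5, chr14:54617946-54618245, minus strand: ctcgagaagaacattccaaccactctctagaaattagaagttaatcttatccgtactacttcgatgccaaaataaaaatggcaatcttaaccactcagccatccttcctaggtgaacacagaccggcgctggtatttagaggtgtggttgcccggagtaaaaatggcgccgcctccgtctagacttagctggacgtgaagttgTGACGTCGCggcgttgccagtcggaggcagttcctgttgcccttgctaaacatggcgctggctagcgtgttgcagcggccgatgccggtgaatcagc
Psmb8, chr17:34197945-34198244, plus strand: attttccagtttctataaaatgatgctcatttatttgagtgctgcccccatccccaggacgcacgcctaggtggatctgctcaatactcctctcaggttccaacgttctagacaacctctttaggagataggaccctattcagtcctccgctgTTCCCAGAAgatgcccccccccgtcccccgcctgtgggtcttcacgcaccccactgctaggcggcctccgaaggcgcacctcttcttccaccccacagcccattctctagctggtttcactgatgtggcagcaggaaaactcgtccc
Psmb6, chr11:70525107-70525406, plus strand: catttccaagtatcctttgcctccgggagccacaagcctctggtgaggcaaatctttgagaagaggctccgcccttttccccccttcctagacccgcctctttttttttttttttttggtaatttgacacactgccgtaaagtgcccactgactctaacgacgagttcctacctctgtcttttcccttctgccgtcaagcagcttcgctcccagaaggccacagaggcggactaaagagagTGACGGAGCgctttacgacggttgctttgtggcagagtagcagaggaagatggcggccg
Psmb9, chr17:34187281-34187580, minus strand: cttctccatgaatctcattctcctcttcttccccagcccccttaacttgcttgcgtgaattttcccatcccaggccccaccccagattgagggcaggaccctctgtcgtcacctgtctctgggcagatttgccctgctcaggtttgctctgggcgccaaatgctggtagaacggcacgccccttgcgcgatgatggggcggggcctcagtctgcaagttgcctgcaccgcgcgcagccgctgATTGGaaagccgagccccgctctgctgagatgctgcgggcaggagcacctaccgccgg
Psmb10, chr8:105938343-105938642, minus strand: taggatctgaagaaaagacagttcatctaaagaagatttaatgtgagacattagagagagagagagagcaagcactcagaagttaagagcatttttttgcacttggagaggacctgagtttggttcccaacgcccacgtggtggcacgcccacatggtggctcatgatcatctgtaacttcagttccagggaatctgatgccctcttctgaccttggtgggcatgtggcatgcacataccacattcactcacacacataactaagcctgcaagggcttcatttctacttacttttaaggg
Capitals mark, in Psmb5 and Psmb6, the core of the antioxidant response element (TGACNNNGC), which Nfe2l1 and Nfe2l2 can bind, with its first base at position -47 and -9 from the gene start. In Psmb8 they mark a gamma-activated site (TTCNNNGAA), an element of interferon-responsive genes, at position -97. In Psmb9 they mark a CCAAT box, which the NF-Y factors bind, read on the opposite strand at position -8. No match to these motifs, or to the interferon response core (a pair of GAAA blocks with any 2 bases between them), lay in the Psmb10 window. The RefSeq table held a start region for 40 of the 48 genes and not for Psma8, Psmb1, Psmb2, Psmb7, Psmc3, Psmd3, Psmd7 and Psmg2.

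Both strands of these windows were searched, and the shares were set beside those over all 27025 start regions of the same length. The antioxidant response element core was found in 6 of 40 proteasome genes (15.0%), against 14.0% of all genes. CCAAT stood in 14 of 40 (35.0%), against 41.1%. The gamma-activated site was present in 3 of 40 (7.5%), against 9.55%, and the interferon response core in 5 of 40 (12.5%), against 3.99%. The genes with the interferon response core were Psmb3, Psmd4, Psmd9, Psme1 and Psmg4, and 0 of the 3 immunoproteasome genes held it. A match describes letters in a window, and neither binding nor an effect on the levels given here was tested.

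Messenger RNA of the constitutive catalytic subunits outweighed that of 2 of the 3 immunoproteasome subunits in every library. Levels between genes are compared as CPM per kilobase of the principal coding transcript. Psmb5, which carries the chymotrypsin-like activity, stood at 13.5 and 13.8 CPM per kb in the WT pair, against 17.9 and 12.3 in the knockouts. Psmb8, its replacement, stood at 0.973, 0.863, 0.885 and 0.844 CPM per kb in the same order. Psmb5 was therefore 13.9 to 20.2 times as abundant as Psmb8 per kilobase.

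By principal transcript length the gap was wider for the caspase-like site. Psmb6, which carries that activity, stood at 17.3 and 17.1 CPM per kb in the WT pair, against 17.7 and 15.3 in the knockouts. Psmb9, which takes its place, stood at 0.877, 0.509, 0.627 and 0.282 CPM per kb. This left Psmb6 at 19.7 to 54.2 times the level of Psmb9, with the widest gap in CRFR1-KO 2, where Psmb9 rested on 25 counts.

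For the trypsin-like site the order was the opposite. Psmb7, the constitutive subunit, stood at 7.73 and 8.78 CPM per kb in the WT pair, against 9.99 and 8.19 in the knockouts. Psmb10, the immunoproteasome subunit, stood at 22.1, 29.4, 28.8 and 26.6 CPM per kb. Psmb10 was 2.86, 3.35, 2.88 and 3.25 times as abundant as Psmb7 per kilobase in these libraries, and its mean of 26.7 CPM per kb was the highest of the 48 genes. With the union of all annotated exons as the length, the mean ratios were 0.03 for Psmb8 to Psmb5, 0.029 for Psmb9 to Psmb6 and 7.0 for Psmb10 to Psmb7. The order within each pair was the same, but the gap of Psmb9 to Psmb6 was then close to that of Psmb8 to Psmb5.

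**Figure D1:**
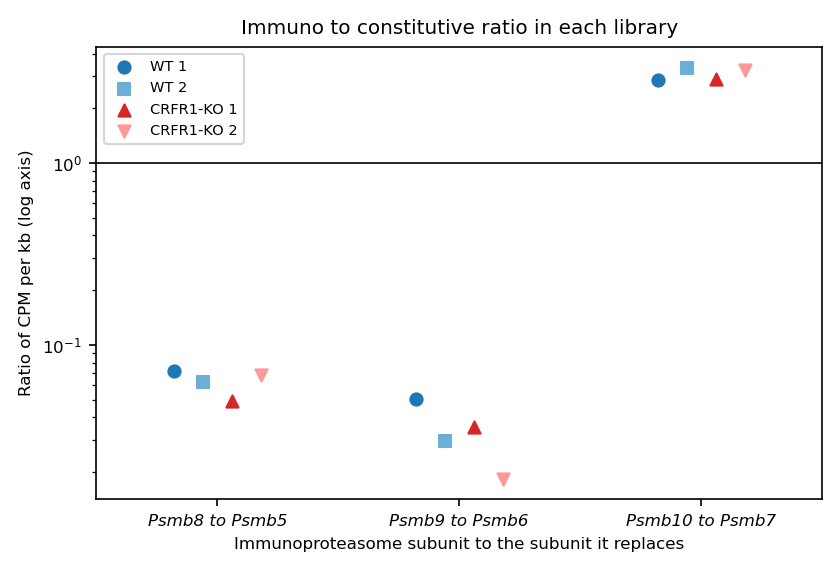
Ratio of each immunoproteasome subunit to the constitutive subunit it replaces, per kilobase on a log axis, with 1 point per library and WT and CRFR1-KO in separate colours. Psmb8 to Psmb5 lies between 0.049 and 0.072 and Psmb9 to Psmb6 between 0.018 and 0.051, while Psmb10 to Psmb7 lies between 2.86 and 3.35 in all 4 libraries.

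Genotype did not separate these ratios. On the log2 scale, the mean of CRFR1-KO minus that of WT was -0.21 for Psmb8 to Psmb5, beside a replicate SD of 0.26 (pooled over the groups, n = 2 each). For Psmb9 to Psmb6 the difference was -0.60 and the replicate SD 0.61. For Psmb10 to Psmb7 the difference was -0.02 and the replicate SD 0.14. The groups overlapped in all 3 ratios, and no permutation test was run because 2 libraries against 2 cannot go below an exact two-sided p of 0.333.

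Psmb10 lies on chromosome 8, 105935735 to 105938444, minus strand, on GRCm38. It sits 1872 bp upstream of Ctrl (105932003 to 105933862, same strand), which encodes a chymotrypsin-like enzyme of acinar cells. Ctrl counts were 1202888 and 1336531 in the WT pair, against 1328030 and 1332856 in the knockouts, and those of Psmb10 came to 0.199%, 0.189%, 0.178% and 0.171% of them. Psmb10 stood at 29.0, 38.6, 37.7 and 34.9 CPM, and Ctrl at 14551, 20421, 21248 and 20360 CPM. Both genes were lowest in WT 1, and the part of the neighbour in the level of Psmb10 was not tested.

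Coding sequences of the exchanged pairs were 63.7% identical between Psmb5 and Psmb8, 61.7% between Psmb6 and Psmb9 and 62.2% between Psmb7 and Psmb10. Psmb5 shared 57.1% of its 50-base windows with annotated transcripts of other genes, so its count depends on how multiply mapping reads were handled. On chromosome 17, exons of Psmb9 overlap Tap1 and exons of Psmb8 overlap Gm20496, each on the opposite strand. The kit marks strand, but the strand setting of the counting is not stated, so these reads might not be told apart.

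The constitutive subunits were not expressed at 1 common level. Over the 14 tested alpha and constitutive beta genes the mean level ran from 2.80 CPM per kb for Psma2 to 16.8 for Psmb6, a 6.01-fold range around a median of 8.89. Psmb10 stood at 3.01 times that median. Across the 17 cap genes the range was 9.95-fold, from Psmd1, the large scaffold of the base, at 2.38 CPM per kb to Psmd6, a subunit of the lid, at 23.7. Psmd6 stood at 3.73 times the median of the other cap genes, which was 6.34. With the union of exons the ranges were 6.94-fold for the core, then from Psma3 (2.07) to Psmb5 (14.4), and 11.5-fold for the cap.

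By principal transcript, the order below Psmb10 and Psmd6 was Psmb6 (16.8), Psmb5 (14.4) and Psma7 (13.8), and the lowest constitutive levels were those of Psmd1 (2.38) and Psmd11 (2.77). Psmb5 and Psma7 did not differ beyond their spread over libraries, since Psmb5 ran from 12.3 to 17.9 CPM per kb and Psma7 from 13.1 to 14.7. Psmb6 and Psmb5 also overlapped, with 15.3 to 17.7 CPM per kb for Psmb6. The order depends on the length used: by the union of exons Psmb10 stayed first, followed by Psmb5 (14.4) and Psmd6 (11.7), while Psmb6 was at 7.17 and Psma7 at 4.10. At the bottom by principal transcript were Psmb8 (0.891), Psmb9 (0.574) and Psmg4 (0.562), a chaperone of core assembly, and by the union of exons Psmb8 (0.429), Psmd9 (0.357) and Psmb9 (0.212).

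**Figure D2:**
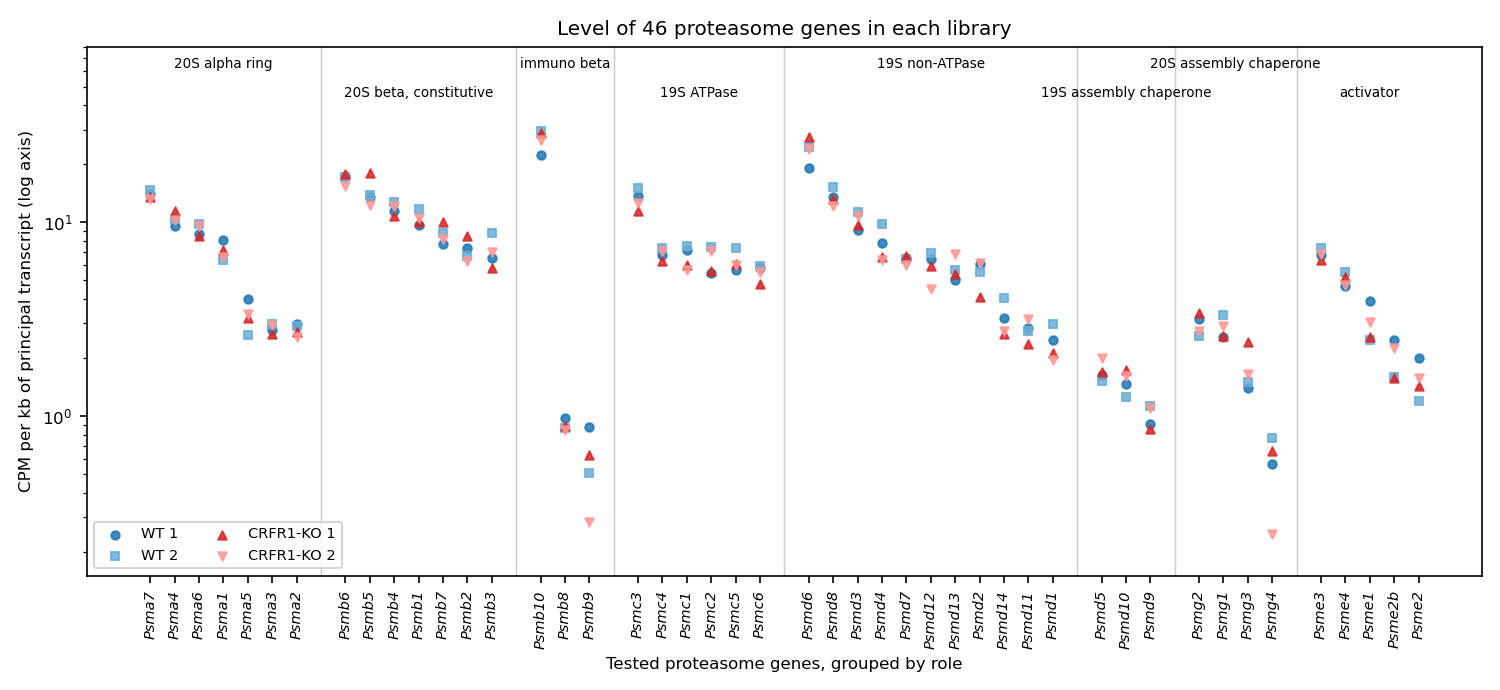
Level of the tested proteasome genes in CPM per kilobase on a log axis, grouped by role, with 1 point per library. Psmb10 and Psmd6 stand highest, at means of 26.7 and 23.7, and Psmb8, Psmb9 and Psmg4 lowest, at 0.891, 0.574 and 0.562, by principal transcript length.

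Loss of CRFR1 was set against WT in the 46 tested genes, with edgeR's quasi-likelihood test fitted on all 15131 tested genes. No proteasome gene passed an adjusted p of 0.05 (Benjamini-Hochberg), where 4 genes of the whole table did (0.0264%). None of the 46 passed by DESeq2 or limma-voom either. At an unadjusted p under 0.05 there was 1 of 46 by edgeR, 1 by limma-voom and 0 by DESeq2. The edgeR share over all genes was 4.86% in either direction, and the shares by limma-voom and DESeq2 were not counted. The 1 gene by edgeR was lower, where 3.15% of all genes were, and 0 were higher, against 1.71%. In CRFR1-KO 34 genes had a log2 fold change below 0 and 12 above it, so 73.9% were on the lower side, against 50.8% of all tested genes. Scaling by library totals moved both shares, to 84.8% and 66.6%. Leaving out WT 2 gave 27 lower of 46, and the share over all tested genes was not counted there. The median log2 fold change was -0.07, against -0.01 over all tested genes, and the extremes were Psmb9 at -0.61 and Psmg3 at 0.48. These genes share 4 libraries and are not replicates of the genotype.

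The median absolute log2 fold change of the 46 genes was 0.107, while the median absolute log2 difference between replicates was 0.183 in WT and 0.170 in CRFR1-KO. Over all tested genes these values were 0.226, 0.357 and 0.289. A difference of means over 2 libraries is smaller than one between single libraries by construction. In 9 of 46 genes (19.6%) the log2 fold change exceeded both replicate differences, against 20.6% of all tested genes. The 95% interval of the fold change lay within 2-fold either way in 41 of 46 genes (89.1%), against 51.1% of all tested genes. It lay within 1.5-fold in 22 of 46, against 2685 of all 15131. The median SE was 0.19 for the 46 genes and 0.30 over all tested genes, which were not matched to them for abundance. The 5 genes with wider intervals were Psmb9, Psme2, Psme2b, Psmg3 and Psmg4, with at most 171 counts in a library.

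**Figure D3:**
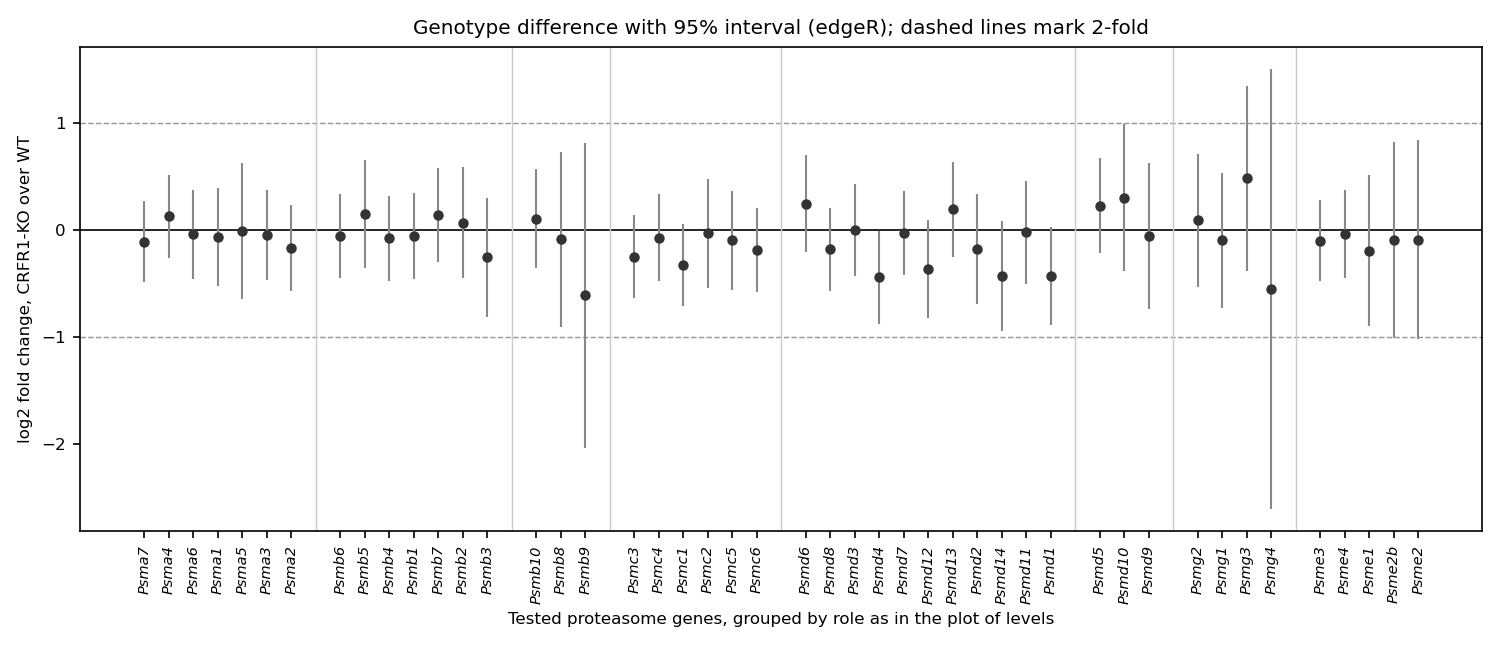
Log2 fold change of CRFR1-KO over WT for the 46 tested proteasome genes, grouped by role, with 95% confidence intervals from edgeR and dashed lines at 2-fold either way. Of the 46 intervals 41 lie between the dashed lines, and that of Psmd4 alone leaves out 0.

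In the core, 10 of the 14 tested constitutive genes were lower in CRFR1-KO. Among the 7 tested alpha genes 1 was higher and 6 were lower, with a median of -0.05. Psma4, at the top of the alpha range, stood at 11.1 and 12.02 CPM in the WT pair, against 13.2 and 11.99 in the knockouts (log2 fold change 0.13, SE 0.17). Psma2, at the bottom, stood at 8.72, 8.53, 7.89 and 7.45 CPM (-0.17, SE 0.17). The WT libraries of Psma2 lay above both CRFR1-KO libraries, and those of Psma4 overlapped.

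Among the 7 constitutive beta genes 3 were higher and 4 lower, with a median of -0.06, and the groups overlapped in all 7. Psmb3, the lowest by fold change, stood at 5.02 and 6.74 CPM in the WT pair, against 4.43 and 5.39 in the knockouts (log2 fold change -0.26, SE 0.24). Psmb5, the highest, stood at 12.1, 12.4, 16.1 and 11.1 CPM (0.15, SE 0.21), and CRFR1-KO 1 by itself stood above WT. Psmb6 differed by -0.06 (SE 0.17) and Psmb7 by 0.14 (SE 0.19).

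The 3 immunoproteasome genes had log2 fold changes of -0.61 (SE 0.60) for Psmb9, -0.09 (SE 0.35) for Psmb8 and 0.10 (SE 0.20) for Psmb10. In CPM, Psmb9 stood at 1.19 and 0.688 in the WT pair, against 0.848 and 0.382 in the knockouts. The interval of its fold change reached from 0.244 to 1.76, so a marked loss and a gain both lay within it at this depth. Psmb8 stood at 1.58, 1.41, 1.44 and 1.37 CPM, with an interval from 0.535 to 1.66. The interval of Psmb10 reached from 0.781 to 1.48. All 3 had groups that overlapped.

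The 19S cap held most of the genes whose groups stood apart. Its 6 ATPases were all lower in CRFR1-KO, with a median log2 fold change of -0.14, and 8 of its 11 non-ATPase genes were lower, with a median of -0.18. Both WT libraries exceeded both CRFR1-KO libraries in 8 of these 17 genes (47.1%) and in 10 of all 46 (21.7%), against 16.9% of all tested genes. The 10 were Psma2, Psma7, Psmc1, Psmc3, Psmc6, Psmd1, Psmd4, Psmd8, Psmd12 and Psmd14. In the other direction there were 3 of 46 (6.52%), namely Psmd5, Psmd10 and Psmg3, against 16.6% of all tested genes, and both directions together came to 13 of 46, against 33.5%. With library totals 14 genes were lower without overlap (30.4%, against 21.6% of all tested genes), 8 of them in the cap, and 2 were higher (4.35%, against 6.44%). No test of the cap against the core was made.

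Psmd4, a ubiquitin receptor of the cap, had the smallest p. It stood at 10.4 and 13.03 CPM in the WT pair, against 8.80 and 8.45 in the knockouts (log2 fold change -0.44, SE 0.18, unadjusted p = 0.0465, adjusted p = 0.9999 by edgeR). Both CRFR1-KO libraries were below both WT libraries, and the difference did not pass the correction over all genes. Psmd1 stood at 7.64, 9.34, 6.59 and 6.02 CPM (-0.43, SE 0.19), again with no overlap. Psmc1, an ATPase, stood at 11.4, 11.96, 9.58 and 9.03 CPM (-0.33, SE 0.16).

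In 9 of the 17 cap genes the groups overlapped. Psmd6, the most abundant of the cap, stood at 26.3 and 33.7 CPM in the WT pair, against 38.0 and 33.2 in the knockouts (log2 fold change 0.24, SE 0.19), with the groups overlapping. Psmc2, an ATPase, stood at 9.81, 13.4, 10.03 and 12.6 CPM (-0.03, SE 0.22), with the second library of each genotype above the first. All 31 tested constitutive core and cap genes had intervals within 2-fold, the lowest bound being 0.519 and the highest 1.62.

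More of the proteasome genes were highest in WT 2 than in any other library. WT 2 was the highest of the 4 libraries for 24 of 46 genes (52.2%), against 27.5% of all tested genes, and WT 1 for 8 (17.4%), against 26.1%. CRFR1-KO 1 was the highest for 10 (21.7%) and CRFR1-KO 2 for 4 (8.70%), against 23.2% of all tested genes in each. The summed level of the 31 constitutive genes was 250 and 275 CPM per kb in the WT pair, against 256 and 249 in the knockouts. With TMM scaling WT 1 thus lay within the span of the CRFR1-KO libraries in this sum, and WT 2 stood above the other 3. The TMM factors were 1.18 and 0.919 in the WT pair, against 0.892 and 1.03 in the knockouts. The sum and the ranks of the libraries depend on these factors and were not repeated with library totals.

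The 8 genes highest in WT 1, a share below that of all tested genes, were Psma1, Psma2, Psma5, Psmb8, Psmb9, Psme1, Psme2 and Psme2b. Psme1, the alpha subunit of the 11S activator, stood at 4.34 and 2.75 CPM in the WT pair, against 2.83 and 3.38 in the knockouts (log2 fold change -0.19, SE 0.30). Psme2, its beta subunit, stood at 1.92, 1.15, 1.38 and 1.51 CPM (-0.09, SE 0.39). In both genes WT 2 was the lowest library and WT 1 the highest, so the WT libraries enclosed those of CRFR1-KO. Without WT 1 the log2 fold changes were 0.18 for Psme1, 0.34 for Psme2 and 0.26 for Psme2b.

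Among genes that work with the immunoproteasome, WT 1 was the highest library for 8 of 11 tested genes of MHC class I antigen processing and for 8 of 15 of the interferon gamma response, against 26.1% of all tested genes. Irf1, an interferon-induced activator, stood at 5.21, 2.74, 4.26 and 2.64 CPM, and Tap1, the peptide transporter, at 4.51, 1.96, 2.11 and 3.13. B2m, the light chain of MHC class I, stood at 42.9, 26.5, 23.3 and 23.8 CPM, so both WT libraries lay above both CRFR1-KO libraries. As for Irf1 and Tap1, WT 1 was the highest library of B2m. Nlrc5, an activator of MHC class I genes, was by contrast highest in CRFR1-KO 2, at 0.92 CPM, beside 0.67, 0.40 and 0.26 in the other libraries in order. Tap2, the other subunit of the transporter, was also highest there, at 5.87 CPM, beside 4.95, 3.85 and 5.06, and its CRFR1-KO libraries lay above both WT libraries. Of the 11 antigen processing genes 5 were lower in CRFR1-KO without overlap (45.5%) and 1 was higher (9.09%). Of the 15 interferon gamma response genes 1 was lower (6.67%) and 2 were higher (13.3%). Over all tested genes 16.9% were lower and 16.6% higher without overlap.

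Markers of several cell types stood apart between genotypes or libraries, with 0 genes of these lists passing after adjustment by edgeR. The 15 leukocyte markers summed to between 10.3 and 12.04 CPM in WT and between 4.90 and 9.20 in CRFR1-KO, with Cd3d and Ms4a1 at a count of 0 in all 4 libraries. Of the 9 tested leukocyte markers 7 were lower and 2 higher, with 3 lower without overlap and 2 lower at an unadjusted p under 0.05 by edgeR. The pan-leukocyte marker Ptprc stood at 2.55 and 2.78 CPM in the WT pair, against 1.33 and 3.41 in the knockouts, and was not highest in WT 1. The 12 macrophage markers summed to between 98.3 and 134 CPM in WT and between 48.5 and 78.8 in CRFR1-KO. Of the 11 tested ones 10 were lower, 6 without overlap and 4 at an unadjusted p under 0.05, and 1 was higher without overlap. The 11 fibroblast markers summed to 527 and 254 CPM in WT and to 175 and 210 in CRFR1-KO, and 10 of 11 were lower, with a median log2 fold change of -0.76, 8 without overlap and 7 at an unadjusted p under 0.05. Of 9 duct markers 7 were lower, 5 of them without overlap and 3 at that p. The 8 endothelial markers went the other way, with 6 higher, a median of 0.21, 3 higher without overlap and 0 at that p. Of the 28 acinar genes 23 were higher, with a median of 0.21 and 10 without overlap. Over all tested genes 16.9% were lower and 16.6% higher without overlap, and 3.15% were lower at that p. Of 10 islet markers 9 were higher, with a median of 0.999, and their sum of 42.8 CPM in WT 1 stood far below 280, 245 and 302 in the other libraries. The part of other cell types in the levels of Psmb8, Psmb9, Psme1 and Psme2 was not tested.

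**Figure D4:**
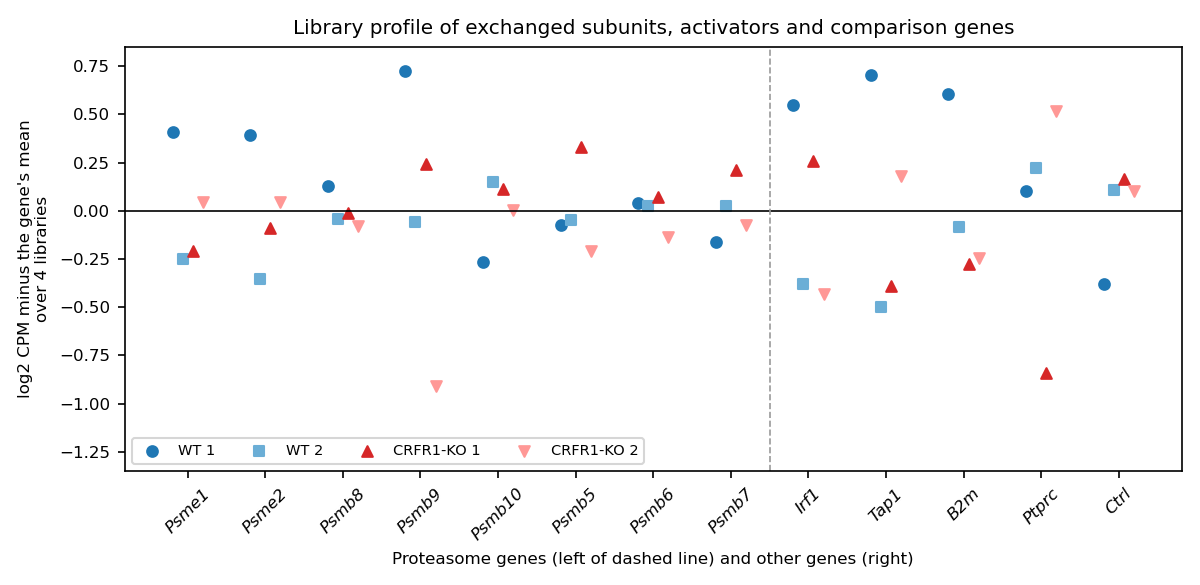
Log2 CPM of each gene in each library minus the gene's mean over the 4 libraries, for proteasome genes left of the dashed line and comparison genes right of it, with 1 symbol per library. Psmb8, Psmb9, Psme1 and Psme2 are highest in WT 1, and Psmb9 is lowest in CRFR1-KO 2, where it stood at 0.382 CPM.

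Psme2 and Psme2b have to be read together. Their coding sequences are identical at 712 of 717 bases (99.3%), and 3 of the 5 differences fall within coding bases 484 to 543, shown here from the GENCODE M21 transcripts with the differing bases in capitals.
Psme2: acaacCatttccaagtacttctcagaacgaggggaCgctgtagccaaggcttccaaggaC
Psme2b: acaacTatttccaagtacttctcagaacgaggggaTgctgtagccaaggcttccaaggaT
A coding read without such a position fits either gene, and 59.3% of the 50-base windows of Psme2 and 69.3% of those of Psme2b occur in transcripts of other genes. Their summed counts were 330 and 162 in the WT pair, against 168 and 222 in the knockouts, which is 3.99, 2.48, 2.69 and 3.39 CPM. WT 1 remained the highest in the sum and WT 2 the lowest. Psme1 and Psme2 were 59.0% identical.

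The remaining activators were more abundant, and WT 2 was the highest library for both. Psme3, a nuclear activator also called PA28 gamma, stood at 18.1 and 19.6 CPM in the WT pair, against 16.9 and 18.3 in the knockouts (log2 fold change -0.10, SE 0.16). Psme4, the large activator PA200, stood at 30.4, 35.97, 33.8 and 30.8 CPM (-0.04, SE 0.17). Per kilobase Psme3, at a mean of 6.85, exceeded Psme1, at 2.99, and Psme4, at 5.04.

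Assembly chaperones had mean levels from 0.562 (Psmg4) to 2.97 (Psmg2) CPM per kb, a range that took in the lowest constitutive subunits, such as Psmd1 at 2.38. Among the 4 chaperones of the core, 2 were higher and 2 lower. Psmg3 stood at 1.23 and 1.33 CPM in the WT pair, against 2.13 and 1.45 in the knockouts (log2 fold change 0.48, SE 0.37), and shares exon bases with Gm26938 on the same strand. Psmg4 rested on 26, 28, 23 and 9 counts (-0.55, SE 0.87). Of the 3 chaperones of the cap, Psmd10 stood at 2.09, 1.79, 2.48 and 2.31 CPM (0.30, SE 0.29) and Psmd9 at 2.36, 2.92, 2.22 and 2.84 (-0.06, SE 0.29). The groups of Psmd10 did not overlap and those of Psmd9 did.

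Partners of the proteasome outside the symbol rule gave 10 higher and 7 lower of 17 tested, with 0 at an unadjusted p under 0.05 and a median log2 fold change of 0.02. Pomp, the chaperone that matures the core, stood at 4.43 and 4.13 CPM in the WT pair, against 5.89 and 4.81 in the knockouts (0.32). Adrm1, a ubiquitin receptor of the cap, stood at 9.73, 11.5, 7.70 and 9.99 CPM (-0.26). Sem1, a small lid subunit, stood at 4.46, 5.20, 5.79 and 4.22 CPM. The groups stood apart for Pomp and overlapped for Adrm1 and Sem1.

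Of 12 regulators of proteasome genes 7 were higher and 5 lower, with a median of 0.18. Nfe2l1, the factor that raises proteasome genes when degradation fails, stood at 29.0 and 27.0 CPM in the WT pair, against 26.5 and 29.1 in the knockouts (log2 fold change -0.01, SE 0.16). Nfe2l2, which acts under oxidative stress, stood at 12.4, 7.14, 8.46 and 8.81 CPM, and was highest in WT 1. Mafg, a partner of both, was the 1 regulator at an unadjusted p under 0.05, with a log2 fold change of 2.88 (SE 0.81). It shares exon bases with Sirt7 and Mir6936, and the 3 summed gave 0.70 (SE 0.21).

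Of the 12 genes for ubiquitin and its activation 5 were higher and 7 lower, with a median log2 fold change of -0.05. The 17 genes of endoplasmic reticulum-associated degradation split into 8 higher and 9 lower, with a median of -0.01. Neither list had a gene at an unadjusted p under 0.05. Among 11 genes of MHC class I antigen processing 2 were higher and 9 lower, with a median of -0.22 and 0 at that p. Among 15 tested genes of the interferon gamma response 5 were higher and 10 lower, with a median of -0.09, and 1 passed it, the immune-cell factor Irf8 at -0.98. No gene of these lists passed after adjustment by edgeR, and 4.86% of all tested genes were at that unadjusted p.

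How far a count can be tied to 1 gene differed among the subunits. Of the 48 genes 26 shared none of their 50-base windows with annotated transcripts of other genes, 12 shared over 10% and 5 over 50%. The 5 were Psme2b (69.3%), Psme2 (59.3%), Psmb5 (57.1%), Psmb3 (55.8%) and Psma5 (54.5%). In 4 genes, Psmd1, Psmg3, Psmb5 and Psme2b, annotated exons overlap another model on the same strand, and in 10 a model on the opposite strand. The levels of these genes depend on how the authors' counting divided such reads, which the labels do not state.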

How the data were processed

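RNA was sequenced in 4 libraries, 2 per genotype. Libraries were made from oligo(dT)-purified mRNA with a dUTP-marked second strand, per the labels' protocols. The authors deposited raw counts, whole numbers for each Ensembl identifier, with no scaling. FastQC, DESeq2 and edgeR were used, per the submitters' processing notes. The aligner, counting program, strand setting and genome build are not given in the sources used.

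Symbols, lengths and positions came from GENCODE M21 on GRCm38. The genotypes were compared with edgeR 4.0.16 under R 4.3.3 (TMM scaling, filterByExpr, quasi-likelihood F test, two-sided, genotype as the sole term). The Benjamini-Hochberg adjustment ran over 15131 genes, with a threshold of 0.05, and 95% intervals were derived from the standard error (SE). The procedure was tested on simulated data. Coding sequences were aligned with Biopython 1.88. Intervals and floors cover counting and library error only.

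Alternatives were DESeq2 1.42.0, limma-voom (limma 3.58.1), other scalings and filters, a replicate block, summed exon-sharing models, counts divided by 4, and leaving out each library. The exon-union length was added after seeing the data.

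The members and lists were chosen with earlier results of these data known. Genes named with values were the catalytic subunits and their replacements, the activators, genes at an unadjusted p under 0.05, the extremes by fold change in each role and by level, genes sharing exons, and the smallest p-values and fixed regulators of the pathway lists. Gene order, motif-bearing start regions and the neighbour Ctrl were picked after their values were seen. A gene that this rule takes is not reported here.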

Additional observations from a re-analysis of the deposited data

How the results depend on the processing

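No proteasome gene passed the adjusted threshold under any alternative run, and the smallest adjusted p of a named one was 0.44 (Psmd4 without WT 1, edgeR), against 0.9999 with all libraries. Over the whole table, where edgeR called 4 genes, DESeq2 called 59, limma-voom 0 and the fit on summed exon-sharing models 0. Leaving out each library in turn gave 0 to 69 (40 without WT 1, 69 without WT 2, 2 without CRFR1-KO 1, 0 without CRFR1-KO 2). Replicate numbers were taken from the sample titles. The deviations of same-numbered libraries from their group means correlated at -0.0662 across genes. With 2 libraries per group both pairs give the same value, so it cannot decide whether the numbers carry a pairing. With the replicate block 7 genes of the whole table and 0 proteasome genes passed, and the proteasome median was -0.0618.

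Scaling by library totals put the median of all tested genes at -0.133. The median log2 fold change was then -0.192 for the proteasome genes, -0.171 for the alpha, -0.167 for the beta and -0.228 for the immunoproteasome genes. Leaving out each library in turn gave medians from -0.128 to -0.0346 for all proteasome genes, from -0.0990 to 0.0306 for the alpha genes (highest without CRFR1-KO 1) and from -0.122 to 0.04999 for the beta genes (highest without CRFR1-KO 2).

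Of 23 named genes 11 kept their direction in every alternative, and 17 of 319 values turned. With library totals Psma4 was at -0.000715 and Psmb10 at -0.0023. Leaving out a library gave ranges of -0.0863 (without WT 1) to 0.329 for Psmb10, -0.148 (without CRFR1-KO 1) to 0.401 for Psmb5, -0.164 to 0.04999 (without CRFR1-KO 2) for Psmb6, and -0.0097 (without CRFR1-KO 1) to 0.284 for Psmb7. Without WT 1 the highest values were reached by Psmb8 (-0.167 to 0.0031), Psme1 (-0.480 to 0.176), Psme2 (-0.409 to 0.335) and Psme2b (-0.370 to 0.265). Psme2b was also above 0 without CRFR1-KO 1, at 0.145. Psmc2 ran from -0.237 to 0.210, Psmd9 from -0.237 to 0.109 and Psme4 from -0.154 to 0.0931. These were above 0 without WT 2 (0.210, 0.107 and 0.0931), Psmc2 and Psmd9 also without CRFR1-KO 1 (0.124 and 0.109) and Psme4 without CRFR1-KO 2 (0.0346). The cause was not tested. Depth limits Psmb8, Psmb9, Psme2, Psmg3 and Psmg4 most, and what 1 deposited count stands for in reads is not settled.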
